A study of Drosophila sechellia and Drosophila melanogaster and Drosophila simulans with 18 samples.

Results

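The 7 genes described here carry neutral lipid between tissues or hold it inside cells: the lipoprotein genes *apolpp* and *Apoltp*, the lipoprotein receptor genes *LpR1* and *LpR2*, the fatty acid binding protein gene *fabp*, and the lipid droplet protein genes *Lsd-1* and *Lsd-2*. They were taken by symbol from the gene tables of 3 species, after any species prefix was removed. All 7 are listed by symbol in the table of *D. melanogaster*, among its 17649 genes, and none of them carries these symbols among the 15372 genes of *D. simulans* or the 17273 genes of *D. sechellia* (50294 listed genes in all). A GD or GM number is the only name of 14820 genes of *D. simulans* and 16284 genes of *D. sechellia*, and orthologs behind these numbers were not used here. The values below are therefore those of *D. melanogaster* unless another species is named.

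HA (hexanoic acid) occurs in the ripe fruit of *Morinda citrifolia*, on which *D. sechellia* feeds, and the comparison asks which genes differ in level after flies eat it. Adult females, 0 to 3 days after eclosion at the start, spent 24 h on instant food with 0.23% HA or on the same food without HA (control). Each of the 6 groups of species and diet has 3 libraries made from 10 whole flies each, 18 libraries in all, and each species is represented by 1 stock: 14021-0231.36 for *D. melanogaster*, 14021-0251.195 for *D. simulans* and 14021-0428.25 for *D. sechellia*, all reared at 20°C on cornmeal medium. Expression is in FPKM, a count of sequenced fragments scaled by transcript length and library depth, which puts the genes of 1 table on a common scale. How well reads that run across exon boundaries were mapped was not examined, so ratios of level between genes are approximate.

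The tables hold 1 FPKM per gene and diet, which the authors' software pooled over the 3 libraries. There is no value per library, so no SD or interval could be given here and no test of the diet was run. The authors' own test of HA against control, which the tables also hold, was not used, and the depth of each library is not given by the tables. A change is given as log2 of HA over control after 1 FPKM was added to each value, and a gene is called only where this passes 1.5-fold (0.58 on the log2 scale) in either direction, among the 10427 genes with a mean of at least 1 FPKM over both diets. This call is a statement of size and not of significance. All 7 genes passed the filter on low values.

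In insects, lipid leaves the gut and the fat body, the fly's liver-like storage tissue, on lipophorin, a reusable lipoprotein that shuttles diacylglycerol and sterols through the hemolymph. Receptors of the low-density lipoprotein (LDL) receptor family help other tissues, the ovary among them, take up that lipid. Inside cells, fatty acids are bound by small cytosolic proteins, and triglyceride is packed into lipid droplets whose perilipin coat governs access of lipases. In extracts of whole flies, fewer cells of a type and less RNA per cell cannot be told apart.

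None of the 7 genes was called in either direction, 0 of 7, where 6.21% of all genes past the filter were called in *D. melanogaster*, 1.53% as higher and 4.68% as lower on HA food. With a lower limit of 0.32 on the log2 scale, again none of the 7 was called, where 20.2% of all genes passed, 5.65% as higher and 14.5% as lower. The log2 changes of the 7 genes lay between -0.29 and 0.14, with a median of -0.03, beside a median of 0.0024 over all 10427 genes. Of these, 5 genes, *apolpp*, *Lsd-1*, *fabp*, *LpR1* and *Apoltp*, were listed with less RNA on HA than on control food, and *LpR2* and *Lsd-2* with more. The values for *LpR1* and *Apoltp* were so close that their sign turned when both diets were rescaled to the same total. The median absolute change over all genes was 0.16, and 3 of the 7 genes (*apolpp*, *Lsd-1* and *fabp*) exceeded it. None lay outside the range from the 5th percentile (-0.57) to the 95th (0.33) of all genes.

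**Figure D1:**
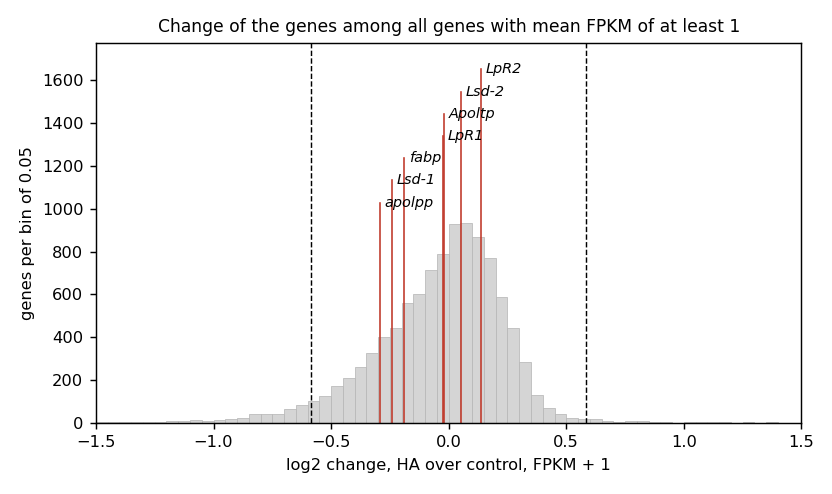
Histogram of the log2 change (HA over control, 1 FPKM added) of the genes of *D. melanogaster* with a mean of at least 1 FPKM, in bins of 0.05, with 10282 of 10427 genes inside the plotted range. Red lines mark the 7 genes, with heights that only separate the names, and dashed lines mark 1.5-fold; all 7 lie between -0.29 and 0.14, inside the dashed lines.

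The gene *apolpp* (FBgn0087002) encodes the large precursor that is cut into the apolipophorins, the protein scaffold of lipophorin, and is made chiefly in the fat body. Its level was 94.8 FPKM on HA food, against 116 FPKM on control food (log2 change -0.29, a difference of -18.6% of the control level), the most negative value of the 7 genes. Of all genes past the filter, 16.4% had a more negative change, so a difference of this size was common in these flies. The gene lies on the plus strand of chromosome 4 of the BDGP6 genome, from 1060969 to 1077273, with 4 annotated transcripts and 10 exons after overlapping ones are merged. Its entry in the table is wider, 1057365 to 1077273, because it is shared with *Zyx* (FBgn0011642), the gene of the adhesion protein zyxin on the opposite strand.

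*Zyx* was listed at 38.4 FPKM on HA food, against 61.0 FPKM on control food, a log2 change of -0.65. It was named because it shares the entry, and it is past 1.5-fold where *apolpp* is not. The exons of both genes overlap by 96 bases of the 11766 exon bases of *apolpp*. The sources used here do not state whether reads were counted by strand, and without strand reads from these bases cannot be assigned to one gene.

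*Apoltp* (FBgn0032136) encodes the scaffold of the lipid transfer particle, which moves lipid from the gut onto lipophorin. It was the least abundant of the 7 genes, at 6.07 FPKM on HA food and 6.17 FPKM on control food (log2 change -0.02). Both values are nearly equal, and 46.4% of all genes had a more negative change. By mean level *Apoltp* stood 75.9% of the way down the genes past the filter, so most of them were more abundant. It covers 9634179 to 9656026 of chromosome arm 2L on the plus strand, with 1 annotated transcript of 20 exons and 13330 exon bases, and it shares its entry with no other gene. The level of *apolpp* was 15.6 times that of *Apoltp* in HA flies and 18.8 times in control flies.

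The receptor genes *LpR1* and *LpR2* are neighbors on chromosome arm 3R, both on the minus strand. *LpR2* (FBgn0051092) covers 25698727 to 25740465 and *LpR1* (FBgn0066101) 25741348 to 25763105, with 882 bases between them. They encode lipophorin receptors of the LDL receptor family, which are known for neutral lipid uptake in oocytes and imaginal discs. *LpR1* was listed at 25.9 FPKM on HA food, against 26.4 FPKM on control food (log2 change -0.03). *LpR2* was listed at 26.3 FPKM on HA food, against 23.9 FPKM on control food (log2 change 0.14, a difference of 10.4% of the control level), the highest change of the 7 genes. Of all genes, 73.8% had a lower value than *LpR2* and 45.7% a lower value than *LpR1*.

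The 2 receptors were thus close in level on either diet. The ratio of *LpR2* to *LpR1* was 1.02 in HA flies and 0.905 in control flies, and their summed level was 52.2 FPKM on HA food and 50.2 FPKM on control food. Which of them is listed higher differs between the diets, but with no error per value their order cannot be told on either. As paralogs with similar coding regions they could share reads, and the sources used here do not say how such reads were counted. *LpR1* has 10 and *LpR2* 9 annotated transcripts, and the tables hold no value per transcript. The entry of *LpR2* also holds the noncoding gene CR46102, which shares no exon base with it and was listed at 0.397 FPKM on HA food and 0.459 FPKM on control food.

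*fabp* (FBgn0037913) encodes the cytosolic fatty acid binding protein, which keeps long-chain fatty acids soluble inside cells. It was the most abundant of the 7 genes, at 1369 FPKM on HA food, against 1562 FPKM on control food (log2 change -0.19, a difference of -12.4% of the control level), and stood within the top 1.39% of genes by mean level. Of all genes, 25.1% had a more negative change. The gene covers 11559896 to 11567054 of chromosome arm 3R on the minus strand, with 3 annotated transcripts.

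The reading of *fabp* is limited by its neighbor *sea* (FBgn0037912), the gene of the mitochondrial citrate carrier scheggia. Both genes have the same outer limits and strand in the annotation, and they share 1660 of the 2302 exon bases of *fabp*. *sea* was listed at 124 FPKM on HA food, against 151 FPKM on control food (log2 change -0.28). How reads from the shared exons were divided between both genes is not known, so the level of either is uncertain.

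*Lsd-1* (FBgn0039114) and *Lsd-2* (FBgn0030608) encode the perilipins of the fly. Lsd-1 sits on the droplets of fat body cells and is needed for lipolysis driven by adipokinetic hormone, the insect counterpart of glucagon, whereas Lsd-2 protects stored triglyceride and is also found in the germline. *Lsd-1* was listed at 126 FPKM on HA food, against 149 FPKM on control food (log2 change -0.24, a difference of -15.5% of the control level). *Lsd-2* was listed at 243 FPKM on HA food, against 234 FPKM on control food (log2 change 0.05). Their changes thus have opposite signs, with 20.5% of all genes below *Lsd-1* and 58.8% below *Lsd-2*. *Lsd-2* exceeded *Lsd-1* on both diets, 1.92 times in HA flies and 1.57 times in control flies. The summed level of both was 369 FPKM on HA food and 383 FPKM on control food.

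*Lsd-1* lies on the plus strand of chromosome arm 3R, 23763857 to 23766662, with 4 annotated transcripts and 1960 exon bases. Its entry reaches to 23767488 because it is shared with CG10214 (FBgn0039115) on the opposite strand, and the exons of both overlap by 144 bases. CG10214 was listed at 62.2 FPKM on HA food, against 51.2 FPKM on control food (log2 change 0.28), the reverse direction of *Lsd-1*. *Lsd-2* covers 15069127 to 15076220 of chromosome X on the minus strand, with 5 annotated transcripts, and shares its entry with no other gene. In all, 4 of the 7 genes share an entry, beside 50.8% of all genes past the filter.

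**Figure D2:**
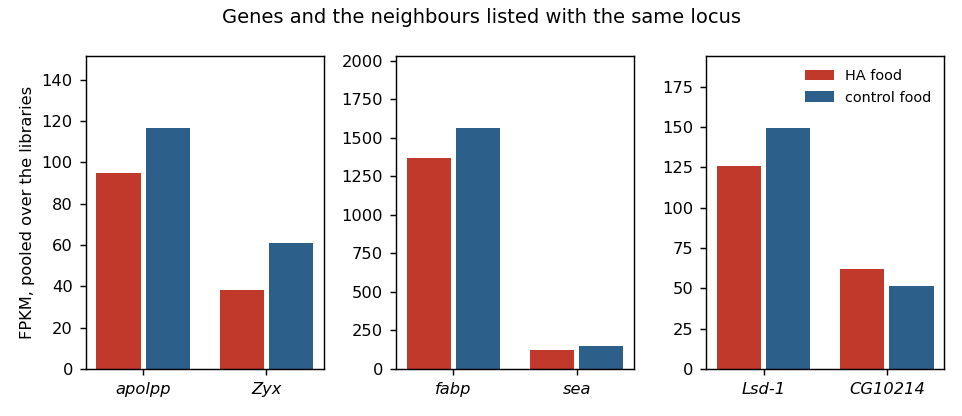
Bars give the pooled FPKM of *apolpp*, *fabp* and *Lsd-1*, each beside the gene listed with the same locus (*Zyx*, *sea* and CG10214), with HA food in red left of control food in blue; there are no error bars because the tables hold 1 value per diet. *Zyx* is at 38.4 on HA and 61.0 on control food, while CG10214 is higher on HA food (62.2) than on control food (51.2).

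Ordered by level, the 7 genes were *fabp*, *Lsd-2*, *Lsd-1*, *apolpp*, the 2 receptor genes and *Apoltp*, on HA and on control food alike, with only *LpR1* and *LpR2* exchanging places. The range was wide: the level of *fabp* was 225 times that of *Apoltp* in HA flies and 253 times in control flies. Between neighbors in this order other than the receptors, the levels were further apart than either gene's values on the 2 diets. Among all genes past the filter *Lsd-2* stood within the top 5.19% by mean level, *Lsd-1* within 8.49%, *apolpp* within 10.6%, *LpR1* within 35.9% and *LpR2* within 36.8%.

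**Figure D3:**
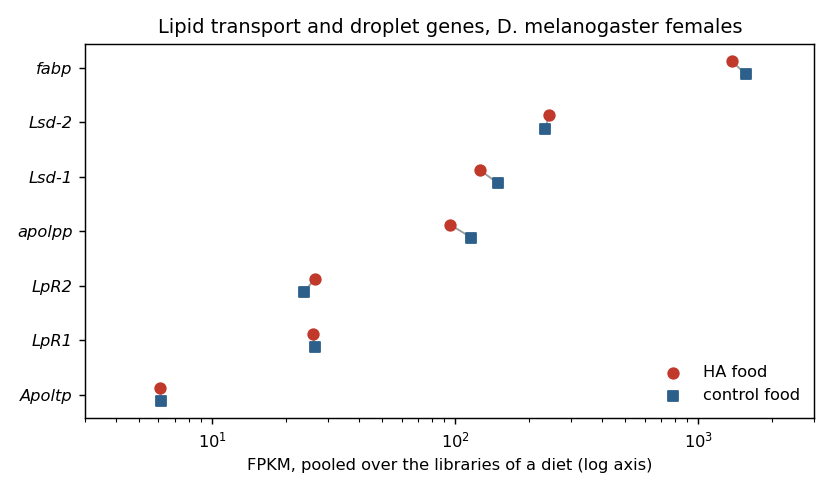
Pooled FPKM (log axis) of the 7 genes in *D. melanogaster* females, with HA food as red circles above control food as blue squares, 1 value per diet and no error bars. The genes run from *Apoltp* near 6 FPKM to *fabp*, at 1369 on HA and 1562 on control food, and each pair of symbols lies close together on this scale.

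Around these 7 genes, 6 lists of genes related to lipid transport and storage were examined. Some members are in them by gene family or signaling pathway and have other roles, such as *arr* and *crq*. The 57 symbols of these lists matched 50 genes of the *D. melanogaster* table, and 47 passed the filter on low values. Of these, 2 were called, both lower on HA food, and none was called higher, beside the 4.68% and 1.53% of all genes. The median log2 change of the 47 genes was -0.08, with 15 above 0 and 32 below 0, beside 49.6% of all genes below 0. After both diets were rescaled to the same total, 21 of the 47 were above 0 and 26 below 0, beside 42.5% of all genes below 0. The count of calls given for each list below stands beside 6.21% of all genes called in either direction. Lists this short cannot be told apart from that share.

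The acyl-CoA binding proteins, small cytosolic carriers of activated fatty acids, were the list closest to *fabp* in role and in sign. All 6 that passed the filter were listed lower on HA food, also after rescaling to the same total, with a median of -0.22. Of the 6, 1 was called, beside 6.21% of all genes. CG15829, now named Acbp6, was listed at 9.39 FPKM on HA food, against 15.6 FPKM on control food (log2 change -0.68). CG8628, now Acbp3, was listed at 169 FPKM on HA food, against 242 FPKM on control food (log2 change -0.52), short of 1.5-fold. The summed level of the 7 listed genes of this family was 2927 FPKM on HA food and 3420 FPKM on control food.

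Among the other hemolymph carriers and the proteins that assemble them, 0 of 5 were called and the median was -0.13. *Mtp*, the microsomal transfer protein that lipidates lipophorin, was listed at 15.3 FPKM on HA food and 14.7 FPKM on control food (log2 change 0.05). Of the lipocalins, *NLaz*, the most abundant, had 93.3 FPKM on HA food and 96.1 FPKM on control food (log2 change -0.04). *Karl* was at 10.4 FPKM on HA food, against 15.9 FPKM on control food (log2 change -0.57, and past 1.5-fold at -0.61 with a pseudocount of 0.1), and *GLaz* at 14.5 FPKM, against 18.0 FPKM (log2 change -0.30).

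Of the other LDL receptor family members, 0 of 5 were called, with a median of -0.01 that turned to 0.03 after rescaling. *yl*, the yolk protein receptor of the oocyte, was by far the most abundant, at 194 FPKM on HA food and 171 FPKM on control food (log2 change 0.18). The remaining receptors were low, such as *LRP1* at 2.52 FPKM on HA food and 2.46 FPKM on control food (log2 change 0.03), the Wnt co-receptor gene *arr* at 2.76 FPKM on HA food and 2.96 FPKM on control food (log2 change -0.08), and *Lrp4* at 1.33 FPKM on HA food and 1.47 FPKM on control food (log2 change -0.08).

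In the family of CD36-like scavenger receptors and fatty acid transport proteins, 1 of 12 genes was called, beside 6.21% of all genes. The median was -0.10. The called gene, *ninaD*, whose receptor serves carotenoid uptake, was listed at 13.0 FPKM on HA food, against 20.3 FPKM on control food (log2 change -0.60); after rescaling its change was -0.55, short of 1.5-fold. CG10345 was listed at 7.93 FPKM on HA food, against 11.0 FPKM on control food (log2 change -0.42). The highest changes were those of *pes* (42.1 FPKM on HA food, 38.6 FPKM on control food, log2 change 0.12) and CG3829 (10.6 FPKM on HA food, 10.1 FPKM on control food, log2 change 0.06).

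One gene of these lists, *crq*, a phagocytic receptor for dying cells, is also named in the *D. simulans* table. It was listed there at 36.7 FPKM on HA food, against 47.6 FPKM on control food (log2 change -0.37), where the median of all 9352 genes past the filter was -0.11. In *D. melanogaster* *crq* had 74.5 FPKM on HA food and 74.6 FPKM on control food. The tables of the species were normalized separately, and no level is compared between them, and the difference between the changes was not tested. No gene of the 6 lists is named in the *D. sechellia* table.

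Among the other droplet proteins and enzymes, 0 of 12 were called, with 7 above 0, 5 below 0 and a median of 0.04. *Hsl*, the hormone-sensitive lipase gene, was listed at 12.1 FPKM on HA food and 10.6 FPKM on control food (log2 change 0.17), and CG9186, the gene of a droplet-associated hydrolase, at 34.1 FPKM on HA food and 30.4 FPKM on control food (log2 change 0.16). The most negative values were those of CG3209, now named Gpat4, which makes an early intermediate of triglyceride synthesis (60.8 FPKM on HA food, 80.4 FPKM on control food, log2 change -0.40), and *Torsin* (64.5 FPKM on HA food, 82.6 FPKM on control food, log2 change -0.35).

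Of the genes of adipokinetic hormone signaling, which acts on the droplets that Lsd-1 coats, 0 of 7 were called and the median was -0.03, or 0.02 after rescaling. The hormone gene *Akh* was listed at 17.6 FPKM on HA food, against 21.9 FPKM on control food (log2 change -0.30), and its receptor gene *AkhR* at 16.3 FPKM, against 22.3 FPKM (log2 change -0.43). Downstream, *Pka-C1*, the catalytic subunit of protein kinase A, had 26.6 FPKM on HA food and 23.7 FPKM on control food (log2 change 0.16), and *Stim*, a calcium sensor of the endoplasmic reticulum, 38.0 FPKM on HA food and 34.1 FPKM on control food (log2 change 0.15).

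**Figure D4:**
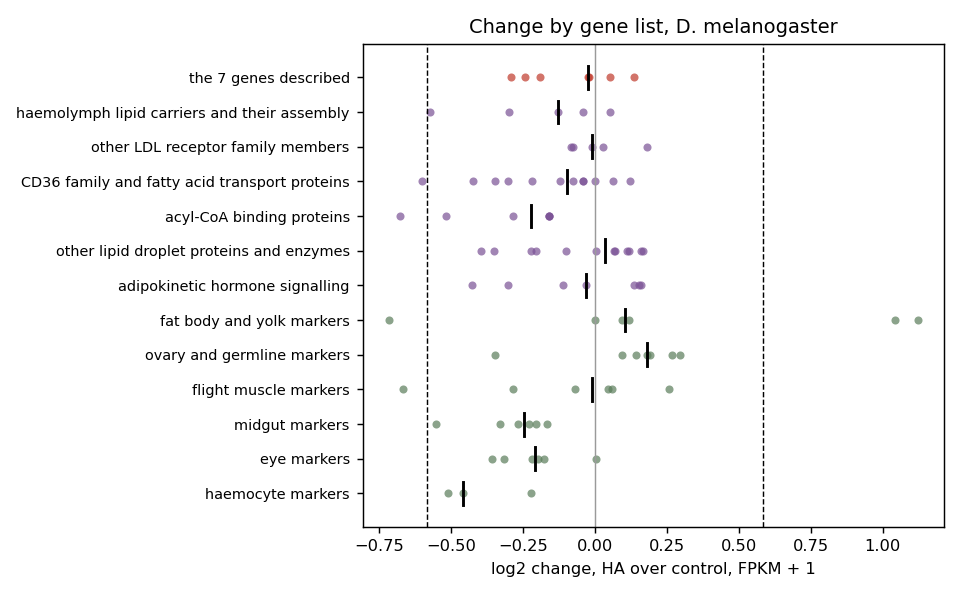
Each point is the log2 change (HA over control, 1 FPKM added) of a *D. melanogaster* gene with a mean of at least 1 FPKM, in the 7 genes described (red), the lipid lists (purple) and tissue marker lists (green); black bars are medians and dashed lines mark 1.5-fold. The 7 genes lie between -0.29 and 0.14, all 6 acyl-CoA binding protein genes and all 6 midgut markers lie below 0, and the fat body list spreads to both sides of the dashed lines.

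Tissue markers were listed as a check of the samples. Of 6 male accessory gland and testis genes listed in *D. melanogaster*, none passed the filter, with at most 0.446 FPKM on HA food and 0.602 FPKM on control food, and 3 were at 0 on both diets, in samples labeled as female. All 6 fat body and yolk markers were detected (summed level 20680 FPKM on HA food, 19516 FPKM on control food), and they differed among themselves: *Fbp1* and *Fbp2* were called higher (log2 changes 1.04 and 1.12) and *Lsp2* lower (-0.72). All 7 germline markers were detected, 6 of them with more RNA on HA food (summed level 575 FPKM on HA food, 540 FPKM on control food, median log2 change 0.18). All 6 midgut markers were listed lower on HA food (summed level 6461 FPKM on HA food, 7706 FPKM on control food, median -0.25), as were 5 of 6 eye markers (2066 FPKM on HA food, 2524 FPKM on control food, median -0.21). Flight muscle markers were split 3 to 3 (summed level 4971 FPKM on HA food, 5482 FPKM on control food), with *TpnC4* called lower (761 FPKM on HA food, 1209 FPKM on control food, log2 change -0.67). The 3 hemocyte markers past the filter were listed lower, with 7.87 FPKM on HA food and 11.2 FPKM on control food summed over all 4. *He*, which did not pass the filter, was listed higher (0.575 FPKM on HA food, 0.291 FPKM on control food). The changes of *apolpp*, *Lsd-1* and *fabp* are of the size of the midgut and eye medians. The fat body and yolk list had a median of 0.10, with 5 of 6 genes above 0, or 4 of 6 after centring on the median of all genes. The part of tissue makeup in the changes of these 3 genes was not tested.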

How the data were processed

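RNA of whole adult females was sequenced in 18 libraries, 3 for each of 6 groups of species and diet. Reads were checked with FastQC by the authors and aligned with Bowtie2 against Ensembl's BDGP6, ASM75419v3 and dsec_caf1 assemblies, and Cuffdiff was run within each species with geometric normalization and bias correction; the versions are not given in the sources used here. The deposited tables hold 1 FPKM per gene and diet, pooled by the authors over 3 libraries. They also hold the authors' own comparison, as deposited a log2 fold change, a test statistic (a score), and a p-value and a q-value; none of these was used.

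The log2 of HA over control was computed from the deposited FPKM with a pseudocount of 1, for genes with a mean of at least 1 FPKM, and called past 1.5-fold. No test was run here, since the tables give 1 value per group, and whether the 3 libraries of a group came from separate cultures is not stated. The depth per library is unknown from the tables. Groups were taken from the sample titles. Gene limits, exons and overlaps come from the Ensembl 115 annotation of BDGP6. The authors ran Cuffdiff with an earlier Ensembl annotation, so the exons and overlaps behind the FPKM may differ from those given here. Each of the 7 genes lies inside its locus in the table (starts counted from 1). Genes of the lists were matched by symbol or, where the table has an older name, by gene identifier.

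Named genes are the 7 genes and, of each list, the 2 with the highest positive and the 2 with the most negative change, and any past 1.5-fold; genes sharing a locus entry, *crq*, *NLaz* and the markers were named beyond this rule, and *crq*, *NLaz* and the markers after their values were seen. No likeness of pattern was computed, since each table has 2 values per gene. The members and lists were chosen with earlier results of these data known. No sequences are shown, because no sequence table was used here. The code was checked on simulated data with planted 2-fold changes and little noise, a setting easier than that of these data. Software was Python 3.11.15, pandas 2.3.3, NumPy 2.4.6 and matplotlib 3.10.9.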

Additional observations from a re-analysis of the deposited data

How the results depend on the processing

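Under each of the 8 alternatives tried, none of the 7 genes was called: pseudocounts of 0.1 or none, no filter or a minimum of 5 FPKM, centring on the median of all genes, rescaling each diet to a total of 1000000, and a lower (0.32 on the log2 scale) or a 2-fold limit. Most of these were unable to change the outcome. The 2-fold limit is stricter than the main one and could add no call. Neither filter setting altered a value, because all 7 genes have a mean above 5 FPKM (lowest *Apoltp*, 6.12). Centring subtracted only 0.0024, and changing the pseudocount or rescaling also moved the 7 values little. Under these settings *apolpp*, the most negative, stayed between -0.30 and -0.24, far short of 0.58 in size. Only the lower limit lay close enough to the values to add a call, so the agreement of the other settings says little. Across the 6 alternatives that leave the threshold in place, the log2 change of *apolpp* ranged from -0.30 to -0.24, *Lsd-1* from -0.24 to -0.19, *fabp* from -0.19 to -0.14, *Lsd-2* from 0.05 to 0.10 and *LpR2* from 0.13 to 0.19. *Apoltp* (-0.02 to 0.02) and *LpR1* (-0.03 to 0.03) changed sign on rescaling. Among the 47 list genes, the 2 calls became 1 on rescaling, as *ninaD* fell short, beside 174 higher and 394 lower of all 10385 genes. They became 3 with a pseudocount of 0.1, beside 201 higher and 632 lower of 10427 genes. With no pseudocount they were also 3, beside 151 higher and 608 lower of 10316 genes. At the lower limit 9 were called, beside 20.2% of all genes. At 2-fold 0 were called, beside 98 higher and 129 lower of 10427 genes. By construction the lower limit can only add calls and 2-fold can only remove them. No paired analysis was possible because the tables hold no value per library, and leaving out single libraries was likewise not run. For *D. simulans* and *D. sechellia* no alternative gave a value, since none of the 7 genes is listed by symbol there.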
